A study of Sus scrofa with 5 samples.

Results

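Blood vessels of fat are lined by endothelial cells, and 10 genes that mark these cells or carry their best known signals were followed in pig backfat: EDN1, PECAM1, CDH5, KDR, VWF, TEK, TIE1, CD34, ESAM and PLVAP. They were chosen by name with their measured values on these same arrays, the differences between the groups included, already known, so the difference between the groups is given for them as a description and without a test. Every probe set annotated with exactly 1 of these symbols was taken, which gave 18 probe sets for 9 of the 10 genes, out of 23999 probe sets and 6765 genes with a single symbol. PLVAP, which encodes a protein of endothelial diaphragms, had no probe set in the annotation and was not measured.

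The animals were females of a backcross of Iberian x Landrace boars to Landrace sows, kept on the same cereal-based diet with free access. No treatment was given, and the groups are extremes of a principal component of carcass and muscle fatty acid traits. The H animals carried more polyunsaturated and L animals more saturated and monounsaturated fatty acids in muscle fat. Backfat RNA of 5 pigs was hybridized to Affymetrix porcine arrays, 1 array per animal, with BC4, BC5 and BC6 in H and BC2 and BC3 in L, and BC1 of L was not analysed here. All values are log2 units, every difference is the H mean minus the L mean, and their precision is limited by the number of arrays, 3 against 2.

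The values had a common floor of 2.17, at which a probe set has no measured level, and reached 16.1. The median of an array was between 4.21 and 4.29. Across 23999 probe sets, 34.2% spanned less than 0.05 over the 5 arrays, so a probe set can also lie flat at a value of its own above the floor. The tissue label is backfat whereas the submitters' extraction note names liver. FABP4, the fatty acid carrier of adipocytes, lay between 15.36 and 15.49 on the 5 arrays, while the liver markers SERPINA1 and CYP2E1 were at or within 0.05 of the floor on all 5. Of the other liver markers, ALB ran from 2.58 to 4.69, TF from 3.61 to 4.61 on its brighter probe set and FGB from the floor to 3.14. APOA1, the main apolipoprotein of high-density lipoprotein, ran from 11.29 to 12.57.

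Endothelial cells hold on to each other through VE-cadherin, the product of CDH5, and through PECAM1 and ESAM at the cell borders. They respond to vascular endothelial growth factor through KDR and to angiopoietins through TEK, to which TIE1 is a related receptor, and they store von Willebrand factor, the product of VWF, for clotting. Endothelin, made from EDN1, is a peptide released by these cells that constricts vessels through receptors on smooth muscle. CD34 is a surface protein of endothelial cells that fat progenitor cells carry too. In bulk tissue, more cells of a type and more RNA per cell cannot be told apart.

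EDN1 was the only member whose groups did not overlap. The gene had a single probe set, so no other could be set beside it. It was at 6.25 on BC2 and 6.38 on BC3 of the L group, and at 6.81 on BC4, 6.89 on BC5 and 6.88 on BC6 of the H group. The 3 H arrays lay within 0.079 of each other and the 2 L arrays within 0.133, and the lowest H array stood 0.43 above the highest L array. The H mean of 6.86 ± 0.0426 (SD, n = 3) exceeded the L mean of 6.32 ± 0.0942 (SD, n = 2) by 0.54 or 1.45-fold, with a standard error of 0.0558 from limma, as for all standard errors given here. Its SD within the groups was smaller than that of most genes: 6.66% of the 5512 genes that spanned at least 0.05 had a smaller SD, and the median SD over them was 0.241. When each animal was left out in turn, the difference stayed between 0.47 and 0.61. EDN1 was listed with these values known, and groups that do not overlap favour a small SD within them. Its standard error, its SD and the range with an animal left out come from those same values. They describe EDN1 on these arrays and are no separate evidence that it is higher in H.

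Of the 8 members that spanned at least 0.05, 1 had all 3 H arrays above both L arrays and none had them below. Over the 5512 genes the share was 8.67% in the first direction and 10.6% in the other, so the count among the members was close to that of all genes. In limma, 0% of the 23999 probe sets (0 probe sets, members included) passed all limits at once, a p-value under 0.01, a Benjamini-Hochberg adjusted p under 0.1 and at least 1.2-fold between the means. At an unadjusted p under 0.05 there were 762, or 3.18%.

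**Figure D1:**
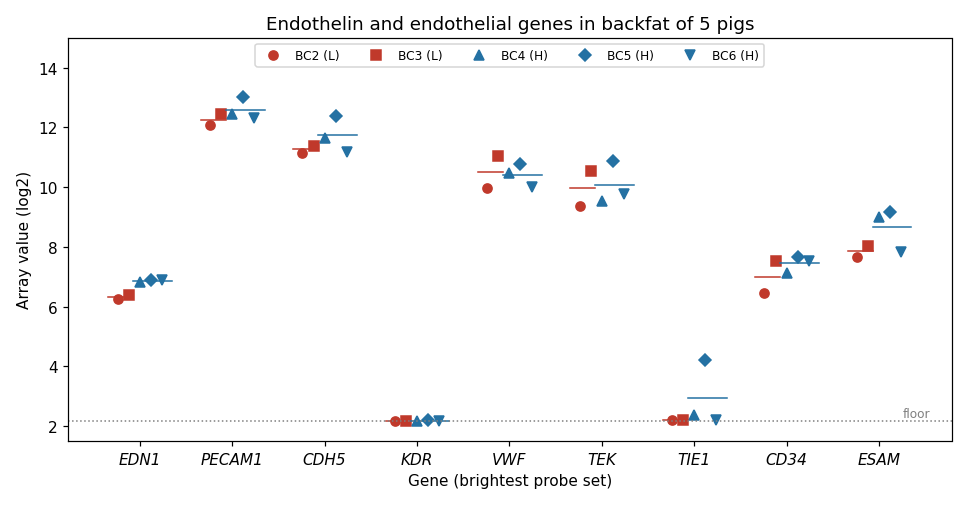
Log2 array values (y axis) of the 9 measured genes (x axis, brightest probe set of each), 1 point per animal, with L animals in red and H animals in blue, bars at the means and a dotted line at the floor. EDN1 has its 3 H points between 6.81 and 6.89 above both L points, KDR lies on the floor, and in the other 7 genes the points of the groups overlap.

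The genes of the cell borders overlapped between the groups. PECAM1, an adhesion molecule of endothelial cells, platelets and leukocytes, was at 12.07 and 12.45 in L (BC2, BC3) and at 12.43, 13.01 and 12.32 in H (BC4, BC5, BC6). BC5 stood above the other 4 arrays, and BC3 of the L group lay above BC4 and BC6. The H mean of 12.59 ± 0.371 (SD, n = 3) exceeded the L mean of 12.26 ± 0.274 (SD, n = 2) by 0.33 (standard error 0.295). It was 0.12 without BC5, 0.13 without BC2 and 0.52 without BC3. The other probe set of PECAM1 ordered 9 of the 10 pairs of arrays in the same way and differed by 0.39 (standard error 0.361).

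CDH5 was at 11.14 and 11.39 in L (BC2, BC3) and at 11.63, 12.38 and 11.19 in H (BC4, BC5, BC6). BC6 of the H group lay between the 2 L arrays, and BC5 stood above the other 4. The difference between the group means was 0.47 (standard error 0.435), and it was 0.14 without BC5 and 0.74 without BC6. Its dimmer probe set, which ordered 8 of the 10 pairs of arrays alike, differed by 0.39 (standard error 0.441) and placed BC2 above BC3, the reverse of the brighter probe set.

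ESAM, an adhesion molecule of endothelial tight junctions, was high on only part of the H arrays. Its values were 7.66 and 8.04 in L (BC2, BC3) and 9.00, 9.17 and 7.82 in H (BC4, BC5, BC6). BC4 and BC5 were higher than both L arrays, and BC6 lay between the 2 L arrays. The H mean of 8.66 ± 0.735 (SD, n = 3) exceeded the L mean of 7.85 ± 0.265 (SD, n = 2) by 0.81 (standard error 0.535). Of its other probe sets, 1 differed by 0.34 (standard error 0.383), with 7 of the 10 pairs of arrays ordered alike, and the other was flat at 3.52 to 3.53. With the mean of its probe sets the difference was 0.38, and without BC6 the brightest probe set differed by 1.23.

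CD34 was at 6.45 and 7.53 in L (BC2, BC3) and at 7.13, 7.67 and 7.53 in H (BC4, BC5, BC6). Only BC2 stood apart, since BC3 was level with the H arrays, and the difference of 0.45 (standard error 0.427) became -0.082 without BC2 and 0.99 without BC3.

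The receptors differed in signal, with KDR near the floor on all arrays and TIE1 near it on every array but BC5. KDR, a receptor of vascular endothelial growth factor, had 2 probe sets, of which 1 was at the floor on all 5 arrays and the other rose above it by 0.0398 on BC5 alone, so a defining endothelial gene has no measured level here. TIE1 was at 2.21 and 2.22 in L (BC2, BC3) and at 2.37, 4.20 and 2.21 in H (BC4, BC5, BC6). BC5 alone lifted its mean, and the difference of 0.71 (standard error 0.777) fell to 0.08 without BC5.

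TEK, the angiopoietin receptor, was at 9.38 and 10.54 in L (BC2, BC3) and at 9.52, 10.88 and 9.78 in H (BC4, BC5, BC6). The groups overlapped over most of their range, and the 2 L animals lay 1.16 apart. The difference of 0.10 (standard error 0.651) was smaller than this spread, and it was -0.48 without BC2, -0.30 without BC5 and 0.69 without BC3. The other 2 probe sets of TEK were at the floor to within 0.05.

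VWF was the member whose H mean lay lower. It was at 9.98 and 11.04 in L (BC2, BC3) and at 10.48, 10.76 and 9.99 in H (BC4, BC5, BC6). The highest array was BC3 of the L group, and the difference of -0.10 (standard error 0.466) turned to 0.43 without BC3 and 0.11 without BC6. Its other probe sets were flat, at the floor and at 2.47, so the gene rests on 1 of 3 probe sets.

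**Figure D2:**
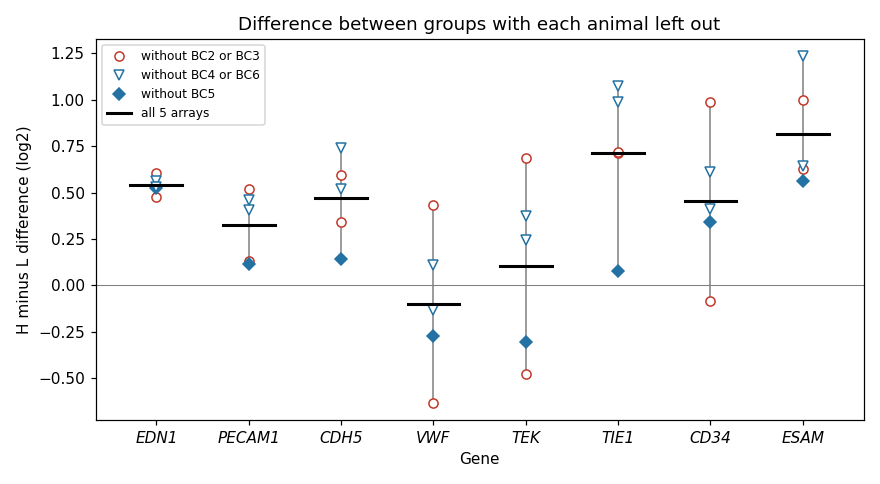
Difference between the means of H and L (y axis, log2) for the 8 genes that spanned at least 0.05 (x axis), with all 5 arrays (black bar) and with 1 animal left out (blue for an H animal, filled for BC5, red for an L animal). EDN1 stays between 0.47 and 0.61, whereas TIE1 drops to 0.08 without BC5 and VWF, TEK and CD34 fall on both sides of 0.

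Taking the 8 members together, 7 had a higher mean in H, where 49.7% of the 5512 genes did, and the median difference was 0.46 against -0.0021 over those genes. Without BC5 the median of the members was 0.13, with 6 of 8 higher, and without BC2 it was 0.24, with 5 of 8 higher. Without BC3, BC4 or BC6 it was 0.65, 0.54 and 0.50. As the members were selected with this contrast known, their common direction supports nothing further.

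The order of animals within a group does not use the contrast between H and L. In all 8 members BC5 was the highest of the 3 H animals and BC3 lay above BC2 in L, an order found in 20.2% of the 5512 genes. The margin was small in places: BC5 exceeded BC6 by 0.0127 in EDN1, and BC3 exceeded BC2 by 0.00593 in TIE1, where both were near the floor. With a margin of over 0.05 on both sides, 6 of the 8 members kept the order, against 15.6% of the genes. Of the 11 member probe sets that spanned at least 0.05, 9 had the order, the exceptions being the dimmer probe sets of CDH5 and ESAM. BC5 was the highest of all 5 arrays in 7 members and in 22.9% of the genes, the exception among the members being VWF. The median of BC5 minus the mean of BC4 and BC6 was 0.70 over the members and -0.04 over the genes, and that of BC3 minus BC2 was 0.38 and 0.0227. The 8 members share the same 5 arrays and were listed as genes of 1 cell type, so they are not independent of each other, and as this order too was known when they were listed, it is given as a description with no p-value.

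Between members, the 10 pairs of arrays were ordered alike 6 to 10 times, with a median of 8 over the 28 pairs of genes. CDH5 and ESAM ordered all 10 alike. EDN1 was most like CD34, with 9 of 10, and least like VWF, with 6. Of these 9 pairs, BC6 above BC3 rests on CD34 values of 7.531 and 7.527, and CDH5, TEK and ESAM each had 8. With 5 arrays no correlation across animals was computed.

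Among 5774 other genes above the floor on all arrays, 78 placed the 5 animals in exactly the order of EDN1 (BC5, BC6, BC4, BC3, BC2). The 5 with the smallest root mean square distance to its profile, after each gene's mean had been subtracted, were GTF2F1, a subunit of a general transcription factor (0.0561), PSME4, a proteasome activator (0.0813), TAF1D, of the RNA polymerase I machinery (0.116), LOC102162486 (0.118) and DLL4, a Notch ligand of endothelial cells (0.119). DLL4 was at 4.83 and 5.05 in L (BC2, BC3) and at 5.47, 5.82 and 5.57 in H (BC4, BC5, BC6). The means were apart by 0.68 (standard error 0.151, limma adjusted p = 1). That its H arrays all lay above the L arrays was fixed by keeping only genes in the order of EDN1, as for all 78.

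Of the rest of the endothelin system, 3 of 7 genes had a probe set. EDNRB, an endothelin receptor present on endothelial cells, was at 5.78 and 5.38 in L (BC2, BC3) and at 5.88, 5.85 and 6.06 in H (BC4, BC5, BC6). Each H array exceeded both L arrays, and the means differed by 0.35 (standard error 0.163, limma adjusted p = 1). The other probe set of EDNRB was at the floor on all 5 arrays. EDNRA, the receptor of vascular smooth muscle, and ECE1, the enzyme that cleaves the precursor to endothelin, were flat at 2.29 and 2.28 and gave no difference to measure.

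In all, 57 genes of the endothelial lists other than the members had a probe set, and 49 of them spanned at least 0.05. The lists also hold ligands, catenins and other genes that are not particular to endothelial cells. The mean was higher in H for 36 of the 49 (73.5%), with a median difference of 0.15, and none of the 57 passed the test in either direction. Without BC5 the count was 26 of 49 with a median of 0.0463, and without BC2 it was 27 of 49 with a median of 0.0265, against 50.1% and 47.1% of all genes in the same settings. BC5 was the highest of the 5 arrays in 26 of the 49 genes (53.1%), against 22.9% of all genes. FABP4 and LPL, of the list of lipid uptake in capillaries, are adipocyte markers too, and without them 35 of 47 means were higher in H, with a median of 0.20. Of the 49 genes, 6 had all 3 H arrays above both L arrays, EDNRB, CLDN5, JAM3, PLAT, DLL4 and RAMP2, or 12.2% against 8.67% of all genes. None had all 3 below both, against 10.6% of all genes. These 6 were picked after their values were seen.

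Among the junction and surface genes all 9 means were higher in H, with a median of 0.27. CLDN5, the claudin of endothelial tight junctions, was at 7.76 and 8.98 in L (BC2, BC3) and at 9.29, 10.03 and 9.17 in H (BC4, BC5, BC6). BC2 was lowest and BC5 highest, the other 3 lay between 8.98 and 9.29, and the means differed by 1.13 (standard error 0.542, limma adjusted p = 1). MCAM, a surface adhesion molecule of vessel walls, differed by 0.26 (standard error 0.501) and JAM3, a junction molecule, by 0.33. In MCAM, BC3 of the L group (8.58) lay above BC4 (7.87) and BC6 (8.42). CTNNB1, the catenin that binds cadherins, differed by 0.13, while 2 of its 4 other probe sets went the other way, by -0.39 and -0.13.

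Differences in growth factors and their receptors ran from 0.04 to 0.38. VEGFA, the ligand of KDR, differed by 0.14 (standard error 0.130), with 2 of its 3 other probe sets at -0.05 and -0.56. VEGFB differed by 0.04 and the receptor FLT1 by 0.25. The brightest probe set of FLT1 lay between 4.20 and 4.37 on 4 arrays and at 5.16 on BC5. Of its 2 other probe sets, 1 was at the floor, and the other was highest on BC6 at 3.86, with BC5 at 3.61 and BC3 at 3.57. ANGPT2, the angiopoietin made by endothelial cells, was between 6.29 and 6.48 on 4 arrays and at 7.30 on BC5, with a difference between the group means of 0.38. ANGPT1 differed by 0.29 and ANGPTL4, an inhibitor of lipoprotein lipase, by 0.25. All 3 genes of each of these lists that spanned at least 0.05 had a higher mean in H, against 49.7% of all genes. None passed the test.

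The remaining lists were mixed. Among 7 genes of clotting and vessel tone, 4 means were higher and 3 lower in H, with a median of 0.0245. PROCR, the protein C receptor, differed by -0.52 and F3, tissue factor, by -0.46, while PLAT, the tissue plasminogen activator, differed by 0.65 (standard error 0.428) and THBD, thrombomodulin, by 0.02. Of 7 transcription factors 3 means were higher, with a median of -0.02. ETS2 differed by -0.55, but another of its probe sets by 0.88, and KLF4 and FOXO1 differed by -0.05 and -0.02. Of 5 leukocyte adhesion genes 4 means were higher, with a median of 0.0407, and VCAM1, ICAM1 and CD47 differed by 0.02, 0.04 and 0.20. Of 9 signalling genes 5 were higher, with a median of 0.0095. S1PR1, the receptor of sphingosine 1-phosphate, differed by 0.39 (standard error 0.285), RAMP2, a partner of the adrenomedullin receptor, by 0.58 (standard error 0.289), CAV1, of caveolae, by -0.05 and JAG1, a Notch ligand, by -0.11. Of 5 genes of lipid uptake in fat capillaries 4 were higher, with a median of 0.0377, and FABP4, FABP5 and LPL, the lipoprotein lipase, differed by 0.04, 0.06 and -0.46. FABP5, JAG1 and CD47 each had another probe set that went the other way, by -0.15, 0.03 and -0.0031.

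**Figure D3:**
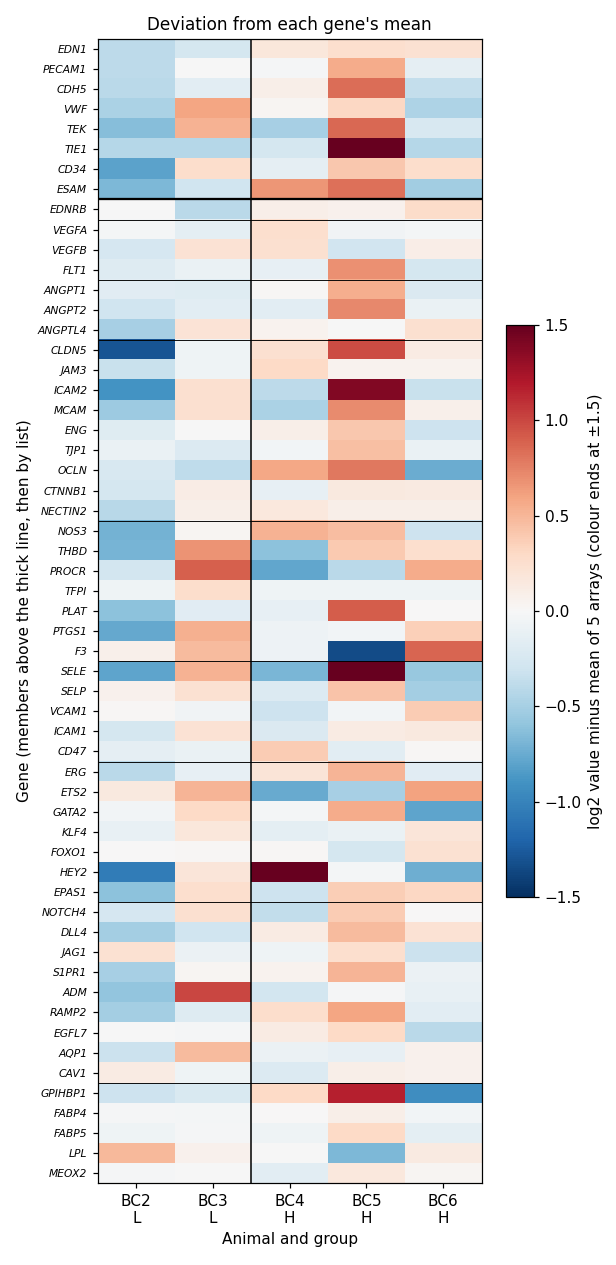
Log2 value of each gene minus its mean over the 5 arrays (colour, cut at 1.5 either way) for the 8 members above the thick line and 49 other genes of the endothelial lists below it, grouped by list (rows), in each animal (columns, L then H). BC5 is red and BC2 blue in most of the members and the junction genes, while BC3 of the L group and BC6 of the H group hold both colours.

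Markers of other cell types differed between the same animals. The mean log2 value of 6 skeletal muscle markers was 2.50 and 3.74 in L (BC2, BC3) and 2.64, 4.91 and 2.38 in H (BC4, BC5, BC6). MYH2, a fast myosin of muscle fibres, was at the floor on BC2 and BC6 and at 7.84 on BC5, and CKM, the muscle creatine kinase, was at 6.95 on BC5 and 2.43 on BC6. Of the 6 markers, 5 were highest on BC5. BC5 and BC3 were thus the arrays highest in muscle markers, and in each group the same animal was highest in the members. The 7 measured adipocyte markers had a mean of 11.15 on BC5 and between 12.02 and 12.40 on the other 4 arrays. LEP, which encodes leptin and was picked after its values were seen, was at 4.41 on BC5 and between 8.27 and 10.48 elsewhere. Without LEP and ADIPOQ, which encodes adiponectin, the mean of the other 5 markers was 12.91 on BC5 and 13.01 to 13.13 elsewhere, and 2 of these 5, FABP4 and LIPE, were highest on BC5. The part of muscle and adipocyte content in the endothelial values was not tested.

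The 8 smooth muscle and pericyte markers had a mean of 8.84 to 9.43 in H and 8.31 to 9.20 in L, with 7 of 8 means higher in H and BC2 the lowest array. ACTA2, the smooth muscle actin, differed by 0.32, and PDGFRB, a receptor of pericytes, by 0.53 (standard error 0.353), with BC5 again highest at 12.85. The 6 fibroblast markers were lowest on BC5 at 9.66 and highest on BC6 at 11.22, and DCN and LUM, proteoglycans of the matrix, differed by -0.18 and -0.21. The 4 macrophage markers were at 5.82 on BC4, 5.90 on BC5 and 7.75 on BC6 in H and at 6.36 and 6.83 in L. AIF1 and CD163 differed by -0.21 and -0.37, while the other probe set of CD163 differed by 0.27. The means of these 3 lists ordered the animals differently from the mean of the members. Within the smooth muscle and pericyte list, 3 of 8 genes, PDGFRB, RGS5 and KCNJ8, were highest on BC5, as the mean of the members was. ACTA2, TAGLN, CNN1 and DES were highest on BC4, and ACTG2, on its brighter probe set, on BC6.

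In H, the 3 measured lymphatic endothelial markers did not follow the members, as BC5 was the highest H array in none. In L, BC3 lay above BC2 in each, as in the members. LYVE1, a hyaluronan receptor of lymphatic vessels and some macrophages, was at 4.92 and 7.67 in L (BC2, BC3) and at 5.17, 5.20 and 7.61 in H (BC4, BC5, BC6). PDPN, podoplanin, was highest on BC6 at 9.49, and both genes varied more within the groups than between them. CCL21 was at 5.51 on BC3 and between the floor and 2.84 on the other arrays, a difference of -1.45 (standard error 1.21). PPBP and GP9 of the 4 measured platelet markers were at the floor on all 5 arrays, as were CD3E, CD3D and CD79B of the 6 lymphocyte markers. ITGB3, which platelets share with other cells, ran from 6.78 to 8.99 and ITGA2B from 2.65 to 2.82. CD8A ran from 3.26 to 4.09, and CD4 was flat at 2.19. HBB, of red cells, lay between 8.99 and 9.42, and HBM was flat at 4.27. Of the Schwann cell and nerve markers, S100B differed by 0.37 and SOX10 by -0.15. None of these markers passed the test.

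**Figure D4:**
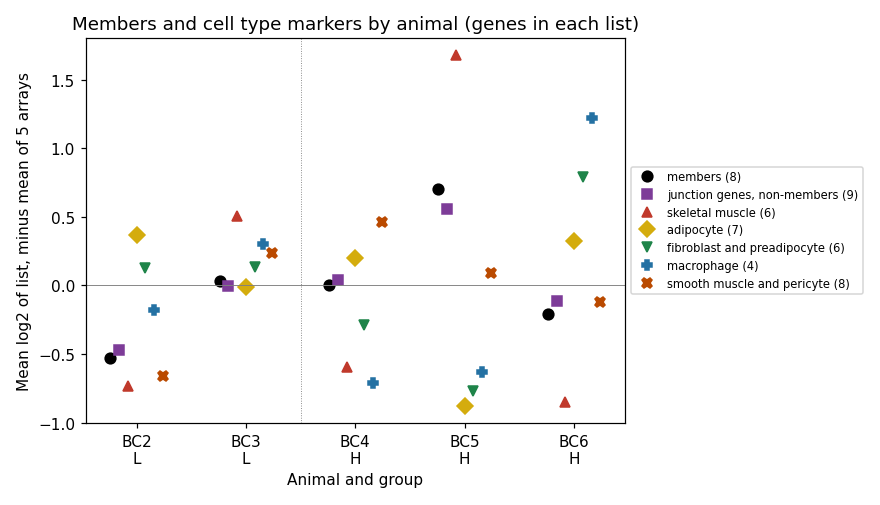
Mean log2 value of each gene list on each array, minus the mean of that list over the 5 arrays (y axis), by animal and group (x axis), with the number of genes in each list in the legend. The members (black) are highest on BC5 and lowest on BC2, as are the other junction genes (purple), while skeletal muscle markers (red) are highest and adipocyte markers (yellow) lowest on BC5. Fibroblast (green) and macrophage (blue) markers are highest on BC6, and smooth muscle and pericyte markers (orange) on BC4.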

How the data were processed

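The authors deposited log2 values per probe set, made from array scans after background correction and normalization between arrays. The methods name GCRMA and the submitters' processing notes RMA, so the method is not settled. GEO's labels give the animal number only, and its group follows the published list of animals. The 24123 probe sets included 124 controls, which were left out. The annotation gave 1 symbol for 10069 probe sets, several for 198 and none for 13732. Of the first, 9961 had a gene in RefSeq, matched by gene identifier. The probe set with the highest mean stood for a gene.

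H minus L was fitted with limma 3.58.1 in R 4.3.3 over all 23999 probe sets, with no covariate, after a test on simulated data with 200 changed probe sets. The methods' thresholds for RNA-Seq were used. Named genes were the members, the 3 brightest of each endothelial list, the 2 brightest of each marker list and those most like EDN1. LEP, ADIPOQ, LIPE, CCL21, the liver markers and the markers at the floor were named after their values were seen. So were the smooth muscle and pericyte markers other than ACTA2 and PDGFRB. The members and lists were chosen with earlier results of these data known. Leaving out genes that span under 0.05 was decided after the values were seen. Replicates are separate animals, and alternatives covered scaling, variance model, probe set choice and each animal. No sequence of these genes was used here.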

Additional observations from a re-analysis of the deposited data

How the results depend on the processing

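No paired analysis was possible because no animal number occurs in both groups. Counts of probe sets that passed were 0 under every alternative with all 5 arrays and 0 to 286 without 1 animal (286 without BC3, 160 without BC2, 0 otherwise). With 1 L array left, its spread was taken to be that of H. The members whose groups did not overlap were 1, and 1 to 7 without 1 animal (7 without BC3, 4 without BC6). The median difference of the members was 0.13 to 0.65 without 1 animal. With limma array weights it was 0.37, and BC5 had the lowest weight, 0.611, against 0.935 to 1.68 on the other arrays. Without 1 animal, TEK ran from -0.48 (without BC2) to 0.69, CD34 from -0.082 (without BC2) to 0.99, and VWF from -0.63 to 0.43 (without BC3). TEK was also below 0 without BC5, at -0.30, and with array weights, at -0.10, and VWF above it without BC6, at 0.11. Genes in the order of EDN1 were 78, and 50 after subtracting array medians, with 4 of the 5 named among them. The other genes of the endothelial lists with a higher H mean were 26 to 39 of 49 without 1 animal, which was tried after seeing the data. So were counts over every member probe set, counts without the genes also listed as adipocyte markers and the adipocyte mean without LEP and ADIPOQ. The cause of these changes was not tested. Probe sets at the floor carry no signal over background.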
